A study of Mus musculus with 37 samples.

Results

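The 39 protein-coding Hox genes of the mouse were followed across all 37 RNA-seq libraries of the study, as 39 of the 51123 gene IDs in the table. They were chosen by name, as the genes whose symbol is Hox with the cluster letter a, b, c or d and a paralog number, which gave 11 genes of HoxA, 10 of HoxB, 9 of HoxC and 9 of HoxD. No measured value entered that choice, but the family was picked with earlier results of these libraries known. Levels are given in TPM, a share of all transcripts after correction for transcript length, so they may be set side by side between genes, and a gene is called detected in a library at 1 TPM or more.

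Hox genes encode homeodomain transcription factors that sit in tandem in the HoxA, HoxB, HoxC and HoxD clusters, and genes at the same place in each cluster share a paralog number. Along the body axis, low paralog numbers are switched on near the hindbrain and neck, high numbers in the trunk, tail and limbs, and skeletal cells keep much of this code in the adult, so that cultured fibroblasts and stromal cells still carry the code of the site they came from. Paralogs 9 to 13 pattern the limb from shoulder or hip to digits, whereas much of the facial skeleton comes from neural crest with little or no Hox expression.

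The study compared bone marrow (BM) cells and primary osteosarcoma (OS) cells from mice in which Osx1-Cre, which is active in progenitors committed to bone, deletes Trp53 alone (SKO) or Trp53 and Wwox together (DKO) and switches on a tdTomato reporter, with BM cells of WT controls. BM was flushed from femurs and tibiae, the body site of the tumors is not given in the labels, and per the methods RNA came from cultures after passaging, when tdTomato-positive cells were dominant. Set 1 held control BM (n = 4), young BM of DKO mice without tumor (DKO yBM, n = 6, replicates 1 to 3 at 1.5 months and 4 to 6 at 4 months), BM of tumor-bearing DKO mice (DKO BMT, n = 3) and DKO tumor cells (n = 3). Set 2 held 7 groups of 3 libraries, which were control BM and, for each of SKO and DKO, yBM, BMT and tumor cells, with no age in the labels. The controls carry neither deletion, and the sources name both mice without Cre and Cre-positive WT mice as controls, and the 3 control libraries of set 2 are called a, b and c because their columns match the group only.

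Several libraries went against their labels. Wwox was at 2.46 to 4.04 TPM in the libraries labelled DKO yBM 2 to 6 of set 1, at 2.92 TPM in that labelled DKO tumor 1 and at 4.74 TPM in that labelled DKO BMT 1, against 0.922 to 4.26 TPM in the set 1 controls. DKO BMT 3 of set 1, at 1.15 TPM, also lay within that control range but was under 0.5 of the control mean and so was not counted as against its label. In set 2, all 3 libraries labelled DKO tumor held 4.26 to 5.23 TPM of Wwox against 2.97 to 4.05 TPM in the controls, and those labelled SKO BMT 2 and 3 held 0.102 and 0.0857 TPM. Trp53 was at 28.4 and 32.3 TPM in the libraries labelled DKO BMT 2 and 3 of set 1, against 40.1 to 53.4 TPM in the controls of that set. The makeup of the cultures also differed. The summed level of 20 leukocyte markers was 22909 to 27814 TPM in the controls of set 2 and 7.48 to 39.2 TPM in all but 3 of the 18 other libraries of that set. Those 3 were SKO BMT 1 and 2 at 113 and 3040 TPM and DKO BMT 2 at 1312 TPM. In set 1 that sum was 3106 to 16302 TPM in control BM, 1038 to 16642 TPM in DKO yBM, 6926 to 12336 TPM in DKO BMT, and 4193, 14.1 and 26.3 TPM in DKO tumor 1, 2 and 3. The pan-leukocyte marker Ptprc was at 0 in SKO yBM 1, DKO yBM 1, SKO tumor 3, SKO BMT 1 and 3 and DKO BMT 1 and 3 of set 2, whereas Col1a1, the main collagen gene of bone, was at 274 TPM or more in every library.

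Promoter sequences are shown for Hoxa9, Hoxb8 and Hoxd8, because Hoxa9 was called lower in a tumor group, Hoxb8 was detected in few libraries and Hoxd8 led several tumor libraries. Each runs from 250 bases before to 50 bases after the start of the gene in RefSeq (build GRCm38.p6), reads 5′ to 3′ on the strand of the gene, and has each CG dinucleotide in capitals. The Hoxa9 promoter lies at chr6:52227321-52227620 on the minus strand, that of Hoxb8 at chr11:96281655-96281954 and that of Hoxd8 at chr2:74704365-74704664, both on the plus strand.
Hoxa9: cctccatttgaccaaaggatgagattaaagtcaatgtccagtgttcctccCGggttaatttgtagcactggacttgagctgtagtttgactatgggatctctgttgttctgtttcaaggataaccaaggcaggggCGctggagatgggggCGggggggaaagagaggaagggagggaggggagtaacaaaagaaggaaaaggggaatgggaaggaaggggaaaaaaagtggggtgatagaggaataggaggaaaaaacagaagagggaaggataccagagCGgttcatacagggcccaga
Hoxb8: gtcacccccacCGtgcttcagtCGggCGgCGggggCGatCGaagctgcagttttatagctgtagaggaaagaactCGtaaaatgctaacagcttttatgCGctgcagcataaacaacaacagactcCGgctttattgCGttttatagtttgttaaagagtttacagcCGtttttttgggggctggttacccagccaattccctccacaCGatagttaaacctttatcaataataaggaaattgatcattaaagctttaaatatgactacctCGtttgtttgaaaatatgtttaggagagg
Hoxd8: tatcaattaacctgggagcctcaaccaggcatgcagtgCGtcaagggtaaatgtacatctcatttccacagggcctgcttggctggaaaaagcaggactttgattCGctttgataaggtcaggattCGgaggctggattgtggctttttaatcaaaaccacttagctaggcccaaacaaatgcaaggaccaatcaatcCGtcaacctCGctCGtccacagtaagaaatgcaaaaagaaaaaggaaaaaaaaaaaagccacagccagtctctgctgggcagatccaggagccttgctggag
They hold 4, 13 and 6 CG dinucleotides (Hoxa9, Hoxb8 and Hoxd8). A median of 14.5 was counted over the promoters matched to 22 of the 39 Hox genes and of 7 over all 32851 promoters in the table, and 68.6%, 37.9% and 56.4% of all promoters held at least as many as Hoxa9, Hoxb8 and Hoxd8, respectively.

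A posterior code led by Hoxa10 and Hoxc10 was present in most libraries. Hoxc10 was the highest Hox gene in 21 of 37 libraries and Hoxa10 in 10, followed by Hoxd8 in 3 and by Hoxb2, Hoxb9 and Hoxc6 in 1 each. In all, 11 genes were detected in 30 or more libraries, among them Hoxa7, Hoxa10, Hoxc6 and Hoxc10, while Hoxb1, Hoxd1, Hoxd3, Hoxd11, Hoxd12 and Hoxd13 were detected in none. The number of detected Hox genes per library ran from 4 to 29 with a median of 20.

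By cluster, HoxC and HoxA had the highest summed levels in the median library. The summed level was 0.377 to 123 TPM for HoxC with a median of 64.5 TPM, and 1.66 to 141 TPM for HoxA with a median of 49.9 TPM. HoxB summed to a median of 8.68 TPM (range 0.113 to 80.2) and HoxD to a median of 1.85 TPM (range 0 to 38.2). Within HoxD, Hoxd12, a distal limb gene, was listed at 0 in all 37.

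**Figure D1:**
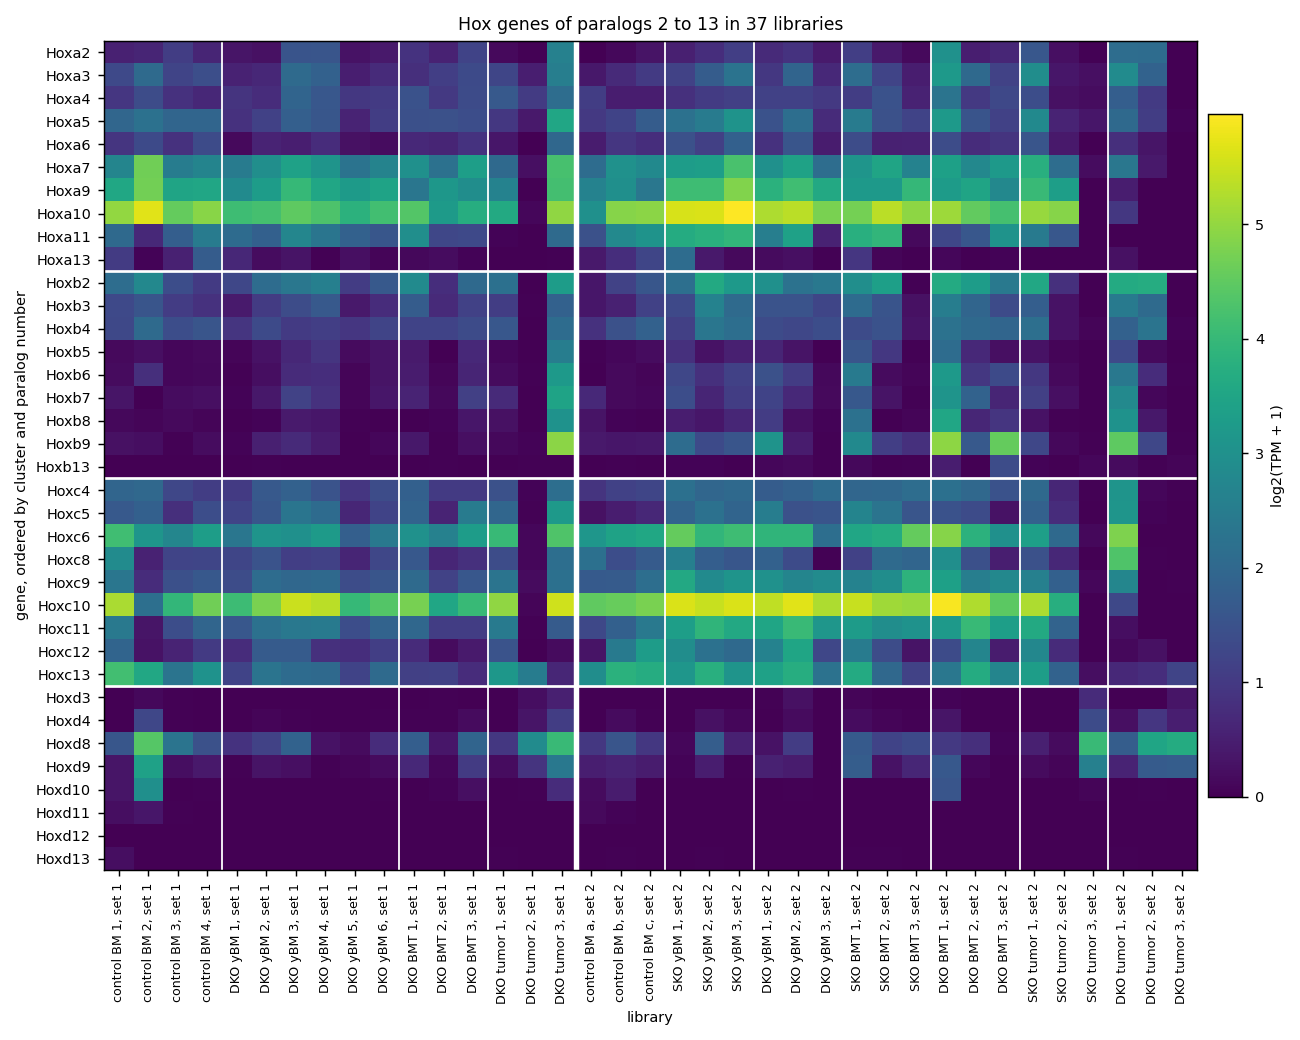
Levels of the Hox genes of paralogs 2 to 13 (lines of the map, by cluster and paralog number) in the 37 libraries (columns, by group, a thick white line between set 1 and set 2) as log2(TPM + 1), from dark (0) to yellow (high). Hoxa10 and Hoxc10 form the brightest bands, which break off in DKO tumor 2 of set 1 and in SKO tumor 3 and DKO tumor 1, 2 and 3 of set 2.

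**Figure D2:**
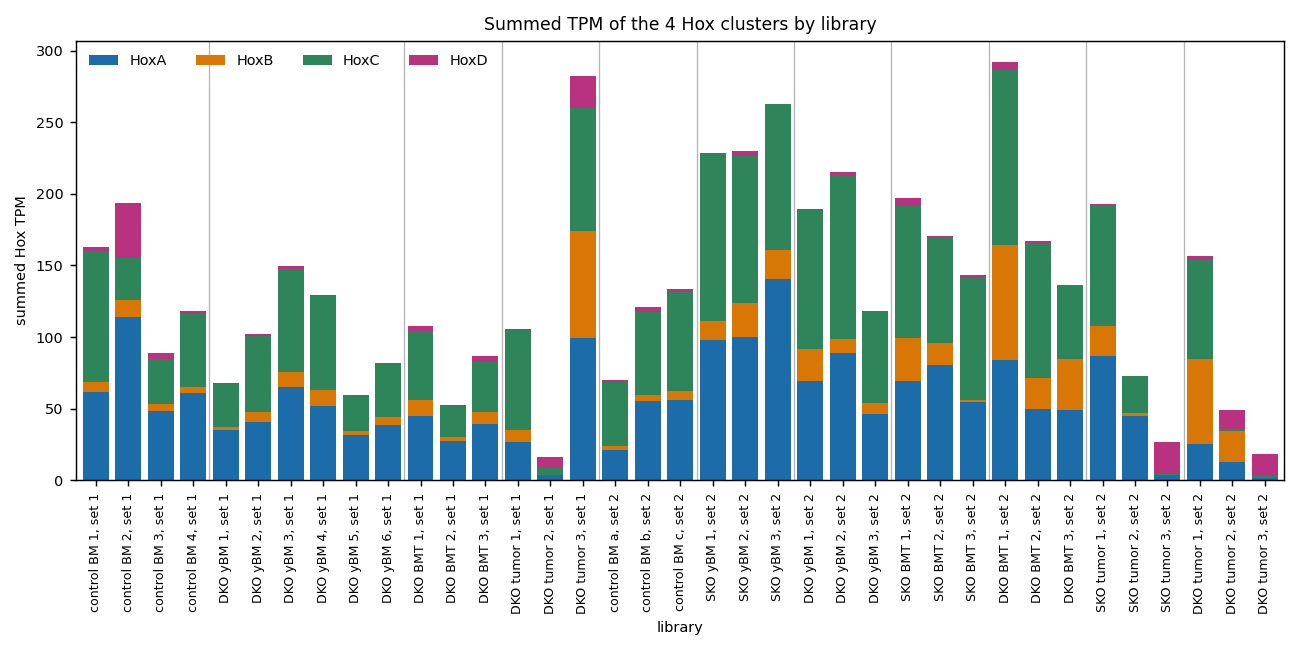
Summed TPM of HoxA, HoxB, HoxC and HoxD (stacked bars) in each of the 37 libraries, ordered by group with grey lines between groups. The total runs from 16.4 TPM in DKO tumor 2 of set 1 to 292 TPM in DKO BMT 1 of set 2, and HoxD (top segment) is largest in control BM 2 of set 1, at 38.2 TPM.

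Among the paralogs 2 to 4, which pattern the hindbrain and neck, Hoxb2 reached the highest level. Hoxb2, which acts in facial motor neuron identity, was at 3.40, 5.84, 1.64 and 1.02 TPM in control BM 1 to 4 of set 1, 1.10 to 4.98 (median 2.74) in DKO yBM, 6.21, 0.716 and 3.08 in DKO BMT and 3.61, 0 and 8.82 in DKO tumor. For Hoxb2, set 2 gave 0.276, 1.26 and 2.04 TPM in the controls, 3.55, 11.4 and 8.22 in SKO yBM and 6.96, 3.74 and 4.26 in DKO yBM. Hoxb2 stood at 6.66, 9.30 and 0.0228 TPM in SKO BMT, 11.6, 8.85 and 4.28 in DKO BMT, 11.01, 0.788 and 0 in SKO tumor and 11.6, 11.95 and 0 in DKO tumor of set 2. All libraries of SKO yBM, DKO yBM and DKO BMT lay above the set 2 controls, whereas the tumor groups spanned them, with DKO tumor 3 and SKO tumor 3 listed at 0. The other genes of these paralogs had highest values of 7.08 TPM for Hoxa2, 8.23 TPM for Hoxa3, 3.90 TPM for Hoxa4, 5.22 TPM for Hoxb3, 4.09 TPM for Hoxb4 and 7.50 TPM for Hoxc4. Hoxa2, which sets the identity of the second pharyngeal arch, was detected in 11 libraries and Hoxa3 in 23, and Hoxd4 only in control BM 2 and DKO tumor 3 of set 1 and SKO tumor 3 of set 2, at 1.42, 1.12 and 1.57 TPM.

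Among the paralogs 5 to 8, which pattern the neck and thorax, Hoxc6 and Hoxa7 were the highest in most groups. Hoxc6 was at 16.5, 7.57, 5.64 and 8.91 TPM in control BM 1 to 4 of set 1, 2.51 to 8.44 (median 5.66) in DKO yBM, 7.12, 5.16 and 8.79 in DKO BMT and 15.2, 0.0814 and 18.9 in DKO tumor. For Hoxc6, set 2 gave 7.75, 9.74 and 10.7 TPM in the controls, 22.6, 14.1 and 16.3 in SKO yBM and 14.03, 13.9 and 3.44 in DKO yBM. Hoxc6 stood at 10.6, 11.8 and 22.4 TPM in SKO BMT, 28.4, 13.3 and 6.98 in DKO BMT, 9.37, 3.13 and 0.0979 in SKO tumor and 27.0, 0 and 0 in DKO tumor of set 2. Its tumor values ran from 0 to beyond any control, so that the DKO tumor group of set 2 spanned 0 to 27.0 TPM. Hoxa7 was at 5.51, 24.5, 4.71 and 5.47 TPM in control BM 1 to 4 of set 1, 3.85 to 9.72 (median 6.07) in DKO yBM, 6.91, 3.69 and 9.13 in DKO BMT and 3.09, 0.186 and 17.9 in DKO tumor. For Hoxa7, set 2 gave 3.33, 7.04 and 6.06 TPM in the controls, 8.75, 9.20 and 18.2 in SKO yBM and 6.999, 9.74 and 3.35 in DKO yBM. Hoxa7 stood at 7.60, 10.2 and 5.27 TPM in SKO BMT, 9.42, 5.90 and 8.19 in DKO BMT, 12.7, 3.39 and 0.143 in SKO tumor and 4.16, 0.325 and 0 in DKO tumor of set 2. Only SKO yBM lay wholly above the set 2 controls, and 1 control library of set 1, control BM 2, was far above the other 3.

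Hoxa5, which acts in lung and thoracic skeleton formation, was at 2.88, 3.65, 2.85 and 2.87 TPM in control BM 1 to 4 of set 1, 0.501 to 2.50 (median 1.18) in DKO yBM, 1.76, 1.78 and 1.67 in DKO BMT and 0.952, 0.319 and 10.6 in DKO tumor. For Hoxa5, set 2 gave 0.978, 1.30 and 2.31 TPM in the controls, 3.69, 4.54 and 7.31 in SKO yBM and 1.85, 3.48 and 0.652 in DKO yBM. Hoxa5 stood at 4.54, 1.78 and 1.28 TPM in SKO BMT, 8.17, 1.93 and 1.22 in DKO BMT, 6.06, 0.498 and 0.290 in SKO tumor and 3.14, 1.12 and 0.0395 in DKO tumor of set 2. DKO yBM and DKO BMT lay wholly below the controls in set 1, while in set 2 SKO yBM lay wholly above them and the other groups overlapped them. Hoxc8 was at 6.34, 0.485, 1.34 and 1.39 TPM in control BM 1 to 4 of set 1, 0.537 to 1.89 (median 1.30) in DKO yBM, 2.14, 0.547 and 0.784 in DKO BMT and 1.60, 0.0681 and 3.47 in DKO tumor. For Hoxc8, set 2 gave 3.63, 1.67 and 2.29 TPM in the controls, 4.94, 2.45 and 2.03 in SKO yBM and 2.64, 1.59 and 0.0244 in DKO yBM. Hoxc8 stood at 1.21, 3.17 and 2.82 TPM in SKO BMT, 6.69, 1.76 and 0.414 in DKO BMT, 1.80, 0.579 and 0 in SKO tumor and 19.1, 0.0262 and 0 in DKO tumor of set 2. Its highest value was that of DKO tumor 1 of set 2, and the groups overlapped in both sets.

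The middle of HoxB was on in few cultures. Hoxb5 was detected in 4 libraries, Hoxb6 in 9, Hoxb7 in 11 and Hoxb8, whose promoter is shown above, in 5. Hoxb8 reached 10.5 TPM in DKO BMT 1, 7.22 TPM in DKO tumor 1, 3.68 TPM in SKO BMT 1 and 1.09 TPM in DKO yBM 1 of set 2 and 7.25 TPM in DKO tumor 3 of set 1, and was under 1 TPM in the other 32. Hoxa6 was detected in 10 libraries and did not pass 2.95 TPM, and Hoxc5 was detected in 25, with a highest value of 8.41 TPM. The models of Hoxc4, Hoxc5 and Hoxc6 overlap, so reads may have been split between them.

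Hoxd8 was the only HoxD gene detected in more than 8 libraries. Hoxd8 was at 2.03, 20.0, 3.91 and 1.78 TPM in control BM 1 to 4 of set 1, 0.130 to 2.69 (median 0.764) in DKO yBM, 2.43, 0.293 and 2.80 in DKO BMT and 0.968, 6.37 and 15.4 in DKO tumor. For Hoxd8, set 2 gave 0.949, 1.96 and 0.955 TPM in the controls, 0.0787, 2.36 and 0.473 in SKO yBM and 0.222, 1.09 and 0 in DKO yBM. Hoxd8 stood at 2.25, 1.30 and 1.53 TPM in SKO BMT, 0.973, 0.733 and 0.0392 in DKO BMT, 0.428, 0.132 and 15.4 in SKO tumor and 2.37, 10.3 and 11.8 in DKO tumor of set 2. All 3 DKO tumor libraries of set 2 lay above the controls and above DKO BMT, and values over 5 TPM elsewhere were those of control BM 2 and DKO tumor 2 and 3 of set 1 and SKO tumor 3. Of its neighbours, Hoxd9 was detected in 8 libraries and was highest in control BM 2 of set 1 (9.57 TPM), SKO tumor 3 (5.04 TPM) and DKO tumor 3 of set 1 (4.23 TPM), and Hoxd10 in 2 libraries, control BM 2 of set 1 at 6.83 TPM and DKO BMT 1 of set 2 at 1.97 TPM.

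The paralogs 9 to 13 supplied a median of 67.4% of the summed Hox TPM. Hoxc10, a regulator of lumbar and hindlimb patterning, was at 35.9, 3.56, 14.6 and 24.4 TPM in control BM 1 to 4 of set 1, 14.8 to 44.1 (median 23.0) in DKO yBM, 25.8, 10.6 and 15.2 in DKO BMT and 30.2, 0.0654 and 45.6 in DKO tumor. For Hoxc10, set 2 gave 21.8, 22.9 and 26.3 TPM in the controls, 48.5, 43.4 and 48.4 in SKO yBM and 40.8, 51.2 and 36.5 in DKO yBM. Hoxc10 stood at 43.0, 33.6 and 32.2 TPM in SKO BMT, 58.9, 37.3 and 21.1 in DKO BMT, 36.6, 12.3 and 0 in SKO tumor and 1.46, 0 and 0 in DKO tumor of set 2. SKO yBM, DKO yBM and SKO BMT lay wholly above the set 2 controls and DKO tumor wholly below them, whereas no group of set 1 stood clear of its controls.

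Hoxa10, the paralog of Hoxc10 in HoxA, was at 31.1, 50.6, 22.4 and 29.1 TPM in control BM 1 to 4 of set 1, 13.3 to 21.5 (median 17.1) in DKO yBM, 19.7, 8.50 and 12.2 in DKO BMT and 11.3, 0.0770 and 30.2 in DKO tumor. For Hoxa10, set 2 gave 6.96, 28.5 and 29.6 TPM in the controls, 47.4, 48.1 and 61.4 in SKO yBM and 36.6, 40.0 and 26.1 in DKO yBM. Hoxa10 stood at 25.3, 39.6 and 29.9 TPM in SKO BMT, 32.8, 22.0 and 17.5 in DKO BMT, 31.98, 28.2 and 0 in SKO tumor and 0.964, 0 and 0 in DKO tumor of set 2. DKO yBM and DKO BMT lay wholly below the controls in set 1, and in set 2 SKO yBM lay wholly above them and DKO tumor wholly below.

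**Figure D3:**
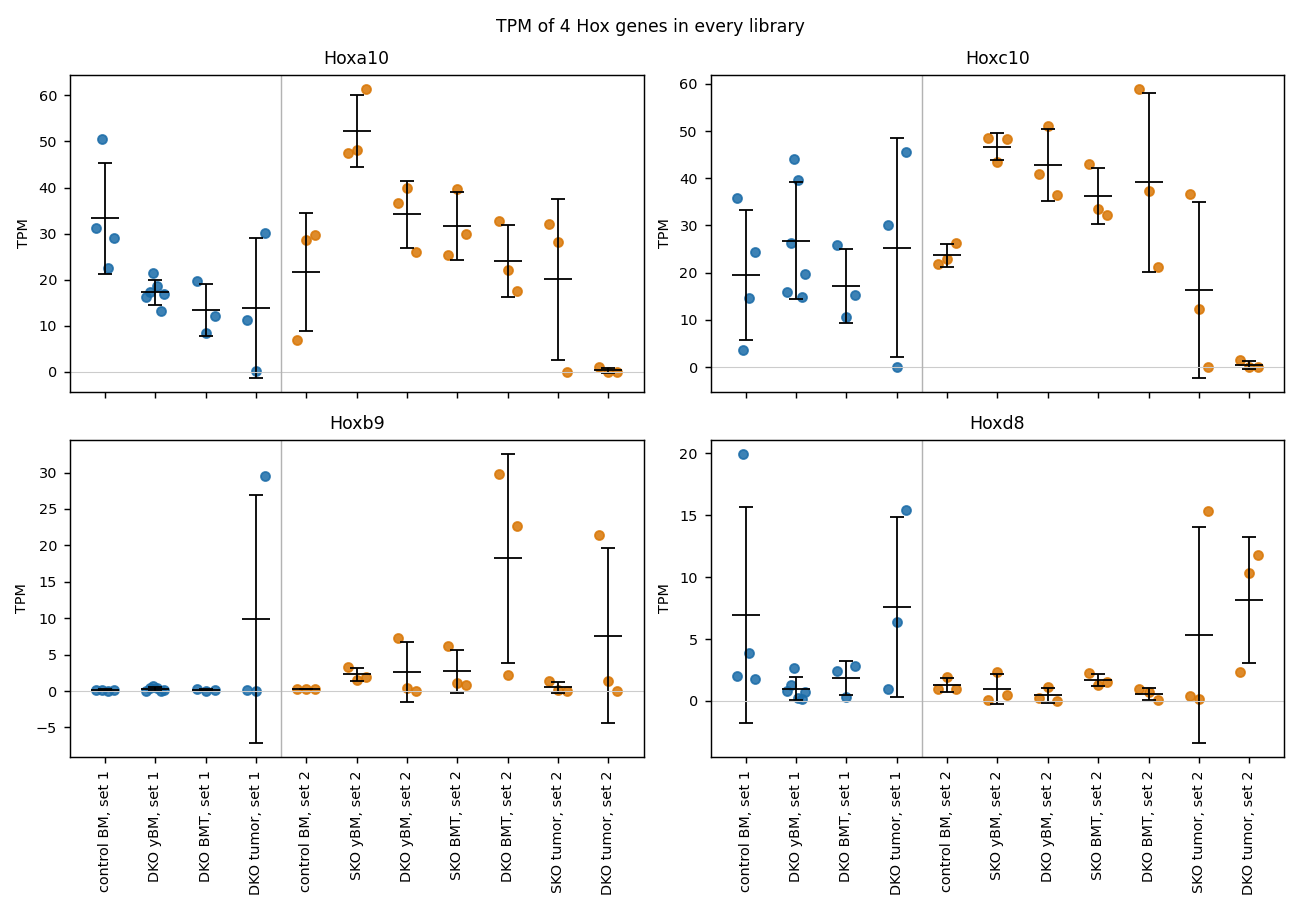
TPM of Hoxa10, Hoxc10, Hoxb9 and Hoxd8 in every library (points, blue for set 1 and orange for set 2) by group, with the mean (bar) and SD (whiskers, n = 3 to 6). Hoxa10 and Hoxc10 are at 0 to 1.46 TPM in the 3 DKO tumor libraries of set 2, Hoxb9 passes 20 TPM in 4 libraries and Hoxd8 passes 10 TPM in 5.

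Hoxa9, which acts in limb positioning and in blood progenitors, was at 10.8, 24.9, 10.1 and 10.5 TPM in control BM 1 to 4 of set 1, 6.22 to 14.9 (median 9.42) in DKO yBM, 4.04, 7.91 and 6.58 in DKO BMT and 5.22, 0 and 17.0 in DKO tumor. For Hoxa9, set 2 gave 5.29, 6.88 and 4.13 TPM in the controls, 16.2, 16.4 and 27.6 in SKO yBM and 13.1, 16.5 and 11.2 in DKO yBM. Hoxa9 stood at 8.36, 8.43 and 14.6 TPM in SKO BMT, 8.74, 10.1 and 5.91 in DKO BMT, 15.5, 9.12 and 0 in SKO tumor and 0.390, 0 and 0 in DKO tumor of set 2. As with Hoxc10, set 2 had SKO yBM, DKO yBM and SKO BMT wholly above the controls and DKO tumor wholly below. Gene models of Hoxa9 and Hoxa10 overlap, so their reads may not be fully separate.

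Hoxb9, a thoracic gene, was at 0.208, 0.171, 0.0181 and 0.150 TPM in control BM 1 to 4 of set 1, 0 to 0.641 (median 0.222) in DKO yBM, 0.298, 0.0292 and 0.180 in DKO BMT and 0.0928, 0.0362 and 29.6 in DKO tumor. For Hoxb9, set 2 gave 0.327, 0.280 and 0.301 TPM in the controls, 3.34, 1.54 and 1.98 in SKO yBM and 7.33, 0.362 and 0.0208 in DKO yBM. Hoxb9 stood at 6.12, 1.15 and 0.786 TPM in SKO BMT, 29.8, 2.16 and 22.6 in DKO BMT, 1.40, 0.0962 and 0.0189 in SKO tumor and 21.4, 1.40 and 0.0171 in DKO tumor of set 2. SKO yBM, SKO BMT and DKO BMT lay wholly above the tightly grouped set 2 controls, but within DKO BMT the values spread from 2.16 to 29.8 TPM.

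Hoxc9 was at 4.04, 0.703, 1.74 and 2.12 TPM in control BM 1 to 4 of set 1, 1.61 to 3.33 (median 2.47) in DKO yBM, 3.14, 1.28 and 2.09 in DKO BMT and 3.90, 0.127 and 3.57 in DKO tumor. For Hoxc9, set 2 gave 2.25, 2.30 and 3.44 TPM in the controls, 11.1, 6.21 and 7.55 in SKO yBM and 7.04, 5.57 and 6.37 in DKO yBM. Hoxc9 stood at 5.24, 6.55 and 13.6 TPM in SKO BMT, 9.40, 4.88 and 5.85 in DKO BMT, 5.09, 2.56 and 0.0807 in SKO tumor and 5.69, 0 and 0.0307 in DKO tumor of set 2. Every library of SKO yBM, DKO yBM, SKO BMT and DKO BMT was above every control of set 2, and the tumor libraries fell on both sides.

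The paralogs 11 pattern the forearm and lower leg. Hoxc11 was at 4.30, 0.268, 1.64 and 2.84 TPM in control BM 1 to 4 of set 1, 1.65 to 4.53 (median 3.21) in DKO yBM, 2.97, 1.13 and 1.11 in DKO BMT and 4.41, 0.0203 and 2.27 in DKO tumor. For Hoxc11, set 2 gave 1.45, 2.57 and 4.35 TPM in the controls, 9.08, 13.9 and 11.1 in SKO yBM and 10.4, 15.5 and 7.79 in DKO yBM. Hoxc11 stood at 8.67, 6.60 and 7.22 TPM in SKO BMT, 8.16, 15.3 and 9.15 in DKO BMT, 11.2, 2.73 and 0 in SKO tumor and 0.165, 0 and 0 in DKO tumor of set 2. It was higher than in any control in all libraries of the 4 SKO and DKO BM groups and lower in all DKO tumor libraries. Hoxa11 was at 3.13, 0.598, 2.46 and 4.60 TPM in control BM 1 to 4 of set 1, 2.01 to 5.66 (median 2.92) in DKO yBM, 6.72, 1.39 and 1.49 in DKO BMT and 0.0421, 0 and 3.17 in DKO tumor. For Hoxa11, set 2 gave 1.77, 5.98 and 7.36 TPM in the controls, 11.7, 12.7 and 14.2 in SKO yBM and 4.89, 9.73 and 0.497 in DKO yBM. Hoxa11 stood at 12.6, 14.2 and 0.111 TPM in SKO BMT, 1.43, 2.08 and 7.41 in DKO BMT, 4.40, 2.08 and 0 in SKO tumor and 0, 0 and 0 in DKO tumor of set 2. SKO yBM lay wholly above the controls and DKO tumor was listed at 0 throughout, and its antisense neighbour Hoxa11os was counted with a strand setting not given in the sources used here.

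Hoxc13, which acts in hair and nail, and Hoxc12 close the HoxC cluster. Hoxc13 was at 16.8, 10.9, 3.90 and 7.17 TPM in control BM 1 to 4 of set 1, 1.29 to 3.93 (median 3.12) in DKO yBM, 1.18, 1.24 and 0.686 in DKO BMT and 7.91, 4.68 and 0.552 in DKO tumor. For Hoxc13, set 2 gave 6.64, 13.1 and 11.96 TPM in the controls, 7.74, 12.6 and 7.50 in SKO yBM and 9.72, 12.1 and 3.76 in DKO yBM. Hoxc13 stood at 11.4, 3.05 and 1.26 TPM in SKO BMT, 4.12, 11.7 and 5.53 in DKO BMT, 9.06, 2.66 and 0.172 in SKO tumor and 0.613, 0.714 and 1.33 in DKO tumor of set 2. DKO BMT of set 1 and DKO tumor of set 2 lay wholly below their controls. Hoxc12 was at 2.80, 0.214, 0.518 and 1.02 TPM in control BM 1 to 4 of set 1, 0.699 to 2.27 (median 0.964) in DKO yBM, 0.674, 0.121 and 0.356 in DKO BMT and 1.88, 0 and 0.121 in DKO tumor. For Hoxc12, set 2 gave 0.241, 4.53 and 8.82 TPM in the controls, 6.54, 3.64 and 3.12 in SKO yBM and 5.26, 10.3 and 1.43 in DKO yBM. Hoxc12 stood at 4.62, 1.62 and 0.252 TPM in SKO BMT, 1.57, 5.55 and 0.381 in DKO BMT, 5.72, 0.674 and 0 in SKO tumor and 0.0870, 0.198 and 0 in DKO tumor of set 2. DKO tumor was below all controls of set 2, and the other groups overlapped them. Hoxa13, which builds the hand and foot, was detected in 4 libraries, up to 3.31 TPM in SKO yBM 1, and Hoxb13 in DKO BMT 3 of set 2 only, at 1.63 TPM.

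Pitx1, the hindlimb selector gene, was at 1 TPM or more in 29 libraries, including all controls (4.27 to 14.9 TPM in set 1 and 5.22 to 14.1 TPM in set 2). It was under 1 TPM in DKO yBM 3, DKO BMT 1 and 2, SKO tumor 3 and all 3 DKO tumor libraries of set 2 (0 to 0.615 TPM) and was listed at 0 in DKO tumor 3 of set 1. Tbx5, which starts forelimb growth, was at 1 TPM or more in 6 libraries, with a median of 0.0618 TPM over all libraries. In set 1 these were control BM 1 and 2 (1.83 and 8.81 TPM) and DKO tumor 1 (2.93 TPM). In set 2 they were control BM b (2.88 TPM), SKO tumor 3 (11.6 TPM) and DKO tumor 3 (4.42 TPM). Tbx4, a hindlimb gene downstream of Pitx1, did not pass 2.83 TPM in any library.

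The 9 tumor libraries differed widely in their Hox code, which is described here library by library with no test. In DKO tumor 2 of set 1, SKO tumor 3 and DKO tumor 3 of set 2, only 4 Hox genes each were detected. Hoxd8 was the highest at 6.37, 15.4 and 11.8 TPM, and the summed Hox TPM was 16.4, 26.9 and 18.1. Those detected included Hoxc13 at 4.68 TPM in the first, Hoxd9 at 5.04 TPM in the second and Hoxd9 at 2.39 TPM in the last. DKO tumor 2 of set 2 had 11 detected genes, mostly paralogs 1 to 4 of HoxA and HoxB, led by Hoxb2 at 11.95 TPM, with Hoxd8 at 10.3 TPM and no HoxC gene detected.

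In DKO tumor 1 of set 2 the levels fell off beyond Hoxc9 in HoxC and beyond Hoxa7 in HoxA. This library held 21 detected genes, among them Hoxc6 at 27.0 TPM, Hoxb9 at 21.4 TPM and Hoxc8 at 19.1 TPM. Hoxc4, Hoxc5 and Hoxc9 were at 7.50, 7.58 and 5.69 TPM. Hoxc10 was still detected at 1.46 TPM, but Hoxa10 was at 0.964 TPM, Hoxc11 at 0.165 TPM and Hoxa11 at 0. DKO tumor 3 of set 1 had 28 detected genes, with Hoxc10 at 45.6 TPM and Hoxa10 at 30.2 TPM beside Hoxb9 at 29.6 TPM, Hoxb7 at 10.0 TPM and Hoxd8 at 15.4 TPM. DKO tumor 1 of set 1 and SKO tumor 1 and 2 of set 2 were led by Hoxc10 or Hoxa10 (28.2 to 36.6 TPM) with 18, 24 and 9 detected genes. The paralogs 9 to 13 made up 48.6% to 83.2% of the Hox TPM in these 4 libraries, and 35.9%, 20.2%, 20.2%, 9.46% and 21.2% in DKO tumor 2 of set 1, SKO tumor 3 and DKO tumor 1, 2 and 3 of set 2. In the 28 BM libraries that share was 47.5% to 79.1%.

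**Figure D4:**
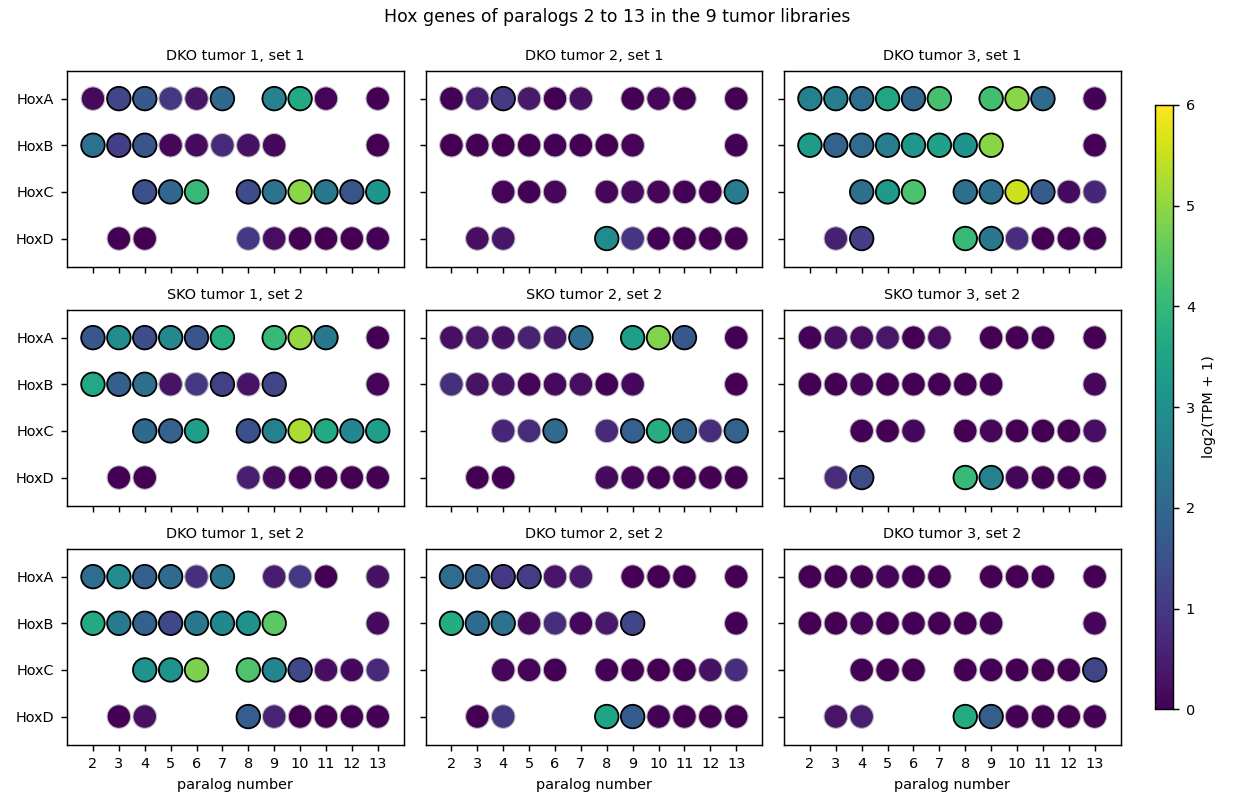
The Hox code of the 9 tumor libraries, with paralog number (2 to 13) across and cluster down; each circle is 1 gene coloured by log2(TPM + 1), and a black rim marks 1 TPM or more. Filled posterior HoxA and HoxC circles are seen in DKO tumor 1 and 3 of set 1 and SKO tumor 1 and 2. Hoxd8 is the brightest of few black-rimmed circles in DKO tumor 2 of set 1, SKO tumor 3 and DKO tumor 3 of set 2.

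In the study BMT cells are the marrow counterpart of the tumor cells, and the labels give both the same numbers. Over the 39 genes on the log2(TPM + 1) scale, Pearson's r between the tumor and BMT library of the same number was 0.841, 0.011 and 0.798 for DKO 1 to 3 of set 1, 0.879, 0.895 and −0.025 for SKO 1 to 3 and 0.656, 0.028 and −0.15 for DKO 1 to 3 of set 2. These values describe likeness across genes of 1 family, which are not independent, and BMT libraries of other numbers gave values as high (0.856 for DKO tumor 1 with DKO BMT 2 of set 1). An r under 0.1 was found for DKO tumor 2 of set 1, SKO tumor 3 and DKO tumor 2 and 3 of set 2, all with Hoxa10 and Hoxc10 under 0.1 TPM.

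Comparisons between groups used limma on log2(TPM + 1) over all genes with at least 1 TPM in 3 or more libraries of a set, with Benjamini-Hochberg adjustment over all of them. An adjusted p under 0.05 made a call. Of the 39 Hox genes, 25 passed that limit in set 1 and 29 in set 2. Since a gene that is high in 1 group only can pass it, the counts below are of these tested genes. Fold changes on this scale understate those of low genes. Counts of Hox genes at an unadjusted p under 0.05 are also given. The share of all genes at that limit was not counted, and the shares called are at an adjusted p under 0.05. Counts at an unadjusted p therefore have no background and cannot be read as particular to Hox genes.

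In set 1, limma called 1 Hox gene, in DKO BMT against control BM. Hoxc13 fell by 2.25 on the log2 scale (SE 0.53, adjusted p = 0.0418 by limma) in DKO BMT, from a mean of 9.69 ± 5.54 (SD, n = 4) to 1.04 ± 0.304 TPM (SD, n = 3), as 1 of 25 tested Hox genes. Of all genes, 2.35% were called and 1.4% called lower. Every DKO BMT library was below every control for Hoxc13, Hoxa10, Hoxa9 and Hoxa5, a pattern seen in either direction for 16.8% of all genes. The call was lost when any 1 library other than control BM 3 was left out (adjusted p 0.0756 to 0.122), without the library whose Wwox goes against the DKO label (adjusted p = 0.0893) and without those whose Trp53 does (adjusted p = 0.211).

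No Hox gene was called by limma in the other comparisons of set 1. For DKO yBM against control, when 7.81% of all genes were called, 3 of 25 had an unadjusted p under 0.05 and the smallest adjusted p was 0.0597 (Hoxc13, 2.66 against 9.69 TPM). When these groups were fitted alone, 4 Hox genes were called. The share of all genes called in that fit was not counted, so the 4 cannot be read as particular to Hox genes. Hoxa5, Hoxa6 and Hoxa10 were lower in all 6 libraries than in any control, when 14.3% of all genes did not overlap. For DKO tumor against control, 3 had an unadjusted p under 0.05 (Hoxa10, Hoxa9 and Hoxc13) and none was free of overlap, against 3.39% of all genes called and 15.5% without overlap. DKO tumor against DKO BMT gave 0 at an unadjusted p under 0.05 (0.257% of all genes called), and so did DKO yBM at 4 against 1.5 months (0.00694% called), where Hoxd8 was lower in every library at 4 months (5.95% of all genes did not overlap).

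In set 2, 5 posterior genes were lower in the libraries labelled DKO tumor than in control BM. Hoxc10 fell by 4.19 on the log2 scale (SE 0.82, adjusted p = 0.00141 by limma), from 23.7 ± 2.38 TPM (SD, n = 3) to 0.487 ± 0.844 TPM (SD, n = 3). Hoxa10 fell by 3.95 (adjusted p = 0.0047), Hoxc13 by 2.59 (adjusted p = 0.0128), Hoxa9 by 2.51 (adjusted p = 0.0148) and Hoxc11 by 1.78 (adjusted p = 0.0473). Each was lower in 3 of 3 tumor libraries than in any control. These are 17.2% of the 29 tested Hox genes, as against 17.2% of all genes called in either direction and 9.48% called lower. Groups did not overlap for 8 of the 29 (7 lower and Hoxd8 higher), as against 39.7% of all genes, and Hoxd8 had a log2 difference of 1.81 (SE 0.75, adjusted p = 0.11).

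Only Hoxc10 and Hoxa10 stayed called whichever library was left out. Hoxa9 was lost without DKO tumor 2 or control BM b (adjusted p 0.0564 and 0.0565), Hoxc13 without control BM b (adjusted p = 0.0514) and Hoxc11 without any 1 of the 6 (0.0537 to 0.151). The number called ran from 2 (without control BM b) to 7 (without DKO tumor 1), and was 3 without DKO tumor 2. The share of all genes called in these fits was not counted. The summed leukocyte level was 11.3 to 23.6 TPM in these tumor libraries against 22909 to 27814 TPM in the controls, and all 20 of its genes were called lower. None of the 5 Hox genes was called with the mean log2(TPM + 1) of these 20 markers as a covariate (adjusted p 0.321 to 0.701 by limma, log2 differences −4.08 to −1.22). The leukocyte level and the group cannot be told apart in this comparison. In bulk cultures, fewer cells of a type and less RNA per cell cannot be told apart. All 3 DKO tumor libraries hold Wwox against their label, so no value without them could be had.

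In the SKO and DKO BM groups of set 2 against the same controls, limma called 1 Hox gene. In DKO BMT, Hoxb9 rose by 3.34 on the log2 scale (SE 1.00, adjusted p = 0.0371 by limma), from 0.303 ± 0.0238 to 18.2 ± 14.4 TPM (SD, n = 3 each), the 1 Hox gene called of 29. Of all genes, 12% were called and 4.22% called higher. Higher values in all 3 libraries than in any control were found for 12 of the 29, which include Hoxb2 to Hoxb6, Hoxb8 and Hoxb9, as against 29.3% of all genes without overlap. The call was lost when any 1 of the libraries but DKO BMT 2 was left out (adjusted p 0.078 to 0.157 by limma). It was also lost with the mean log2(TPM + 1) of the 20 leukocyte markers as a covariate (log2 difference 0.84, adjusted p = 0.879 by limma).

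In SKO yBM, 20 of 29 Hox genes were higher in all 3 libraries than in any control and none lower, when 48.1% of all genes did not overlap in either direction. None was called by limma (13.5% of all genes were), 4 had an unadjusted p under 0.05, and the median log2 difference was 0.96 over the Hox genes and 0.24 over all genes tested. The smallest adjusted p was that of Hoxc11, at 0.0573 for a log2 difference of 1.76 (2.79 to 11.3 TPM). In DKO yBM, 9 Hox genes were higher in every library and none lower, when 45.1% of all genes did not overlap. None was called by limma (19.5% of all genes were) and 2 had an unadjusted p under 0.05. The median log2 difference was 0.41 (0.07 over all genes), and Hoxc11 again had the smallest adjusted p, at 0.0504. In SKO BMT, 7 Hox genes were higher in every library and none lower, when 34.6% of all genes did not overlap. None was called by limma (13.4% of all genes were), 1 had an unadjusted p under 0.05 and the median was 0.55 (0.07 over all genes). When each group was fitted with the controls alone, limma called 10 Hox genes in SKO yBM, 7 in DKO yBM and 1 in SKO BMT. The share of all genes called in these fits was not counted, so these counts cannot be read as particular to Hox genes. These groups share the 3 control libraries, and in each the leukocyte level was far below the controls, with 19 to 20 of its 20 genes called lower.

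**Figure D5:**
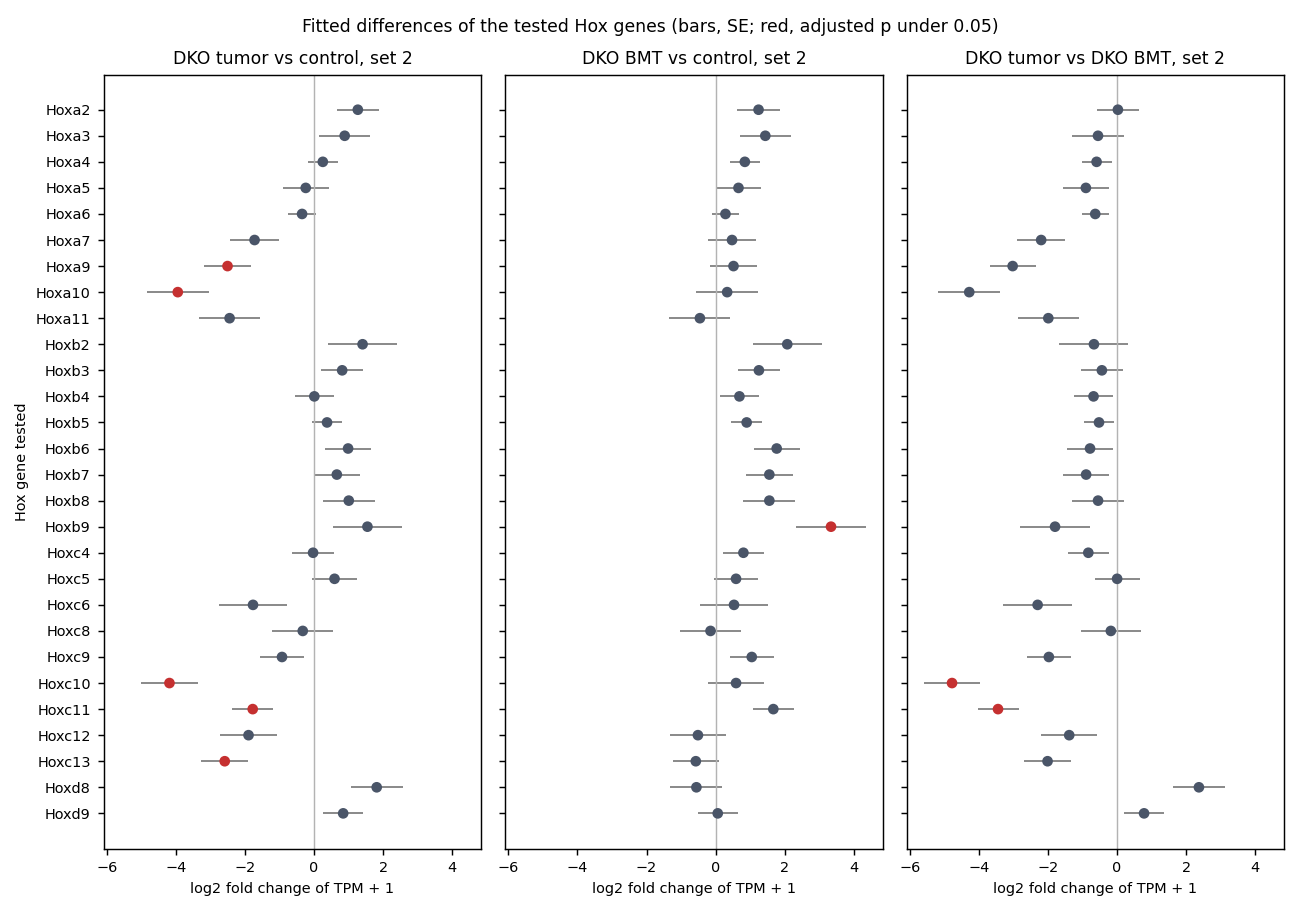
Fitted log2 differences of the tested Hox genes of paralogs 2 to 13 in set 2 (points) with SE (bars) for DKO tumor against control, DKO BMT against control and DKO tumor against DKO BMT, red where the adjusted p was under 0.05. Hoxc10 lies at −4.19, 0.59 and −4.78, and the paralogs 9 to 13 of HoxA and HoxC lie to the left in the first and last panels.

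In SKO tumor against the same controls, no Hox gene was called by limma (11.6% of all genes were), 1 had an unadjusted p under 0.05 (Hoxc13) and none was free of overlap (22.9% of all genes were). SKO tumor 1 and 2 held the posterior code and SKO tumor 3 did not. Leaving out each library in turn gave 0 to 2 called Hox genes, with the 2 found without SKO tumor 1. That library is named after its Hox values were seen, so the count is no test. The share of all genes called in that fit was not counted.

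Between the libraries labelled DKO tumor and DKO BMT in set 2, a comparison without control libraries, Hoxc10 fell by 4.78 (SE 0.82, from 39.1 ± 19.0 to 0.487 TPM) and Hoxc11 by 3.45 (SE 0.59, from 10.9 ± 3.84 to 0.0549 TPM), both at an adjusted p of 0.0223 by limma. They are 2 of the 29 tested Hox genes (6.90%) and 2 of 12 genes called among all (0.083%, or 0.0207% called lower). In this comparison 10 had an unadjusted p under 0.05. The share of all genes at that limit was not counted, so the 10 cannot be read as particular to Hox genes. In every tumor library 8 were lower than in any BMT library and Hoxd8 was higher (6.93% of all genes did not overlap). The leukocyte level was 11.3 to 23.6 TPM in the tumor libraries and 8.35, 1312 and 8.37 TPM in DKO BMT 3, 2 and 1. Both calls were lost when any 1 of the 6 libraries was left out, with an adjusted p of 0.0517 to 0.136 for Hoxc10 and 0.0592 to 0.136 for Hoxc11. The study describes tumor and BMT cells as paired. With the replicate number as a block, limma gave adjusted p values of 0.0434 for Hoxc10 and 0.069 for Hoxc11. That block joined all SKO and DKO libraries of set 2 with the same number, so it did not model tumor and BMT pairs alone. All 3 libraries labelled DKO tumor hold Wwox against that label (4.26 to 5.23 TPM).

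For SKO tumor against SKO BMT, limma called no Hox gene (0.083% of all genes called), 2 had an unadjusted p under 0.05, and Hoxc6 and Hoxc9 were lower in every tumor library, when 9.37% of all genes did not overlap. Whether the difference between tumor and BMT cells itself differed between the groups labelled DKO and SKO was tested as an interaction, with 0 Hox genes called (0% of all genes) and 3 at an unadjusted p under 0.05. DKO against SKO tumor likewise gave 0 called (0% of all genes), with 4 at an unadjusted p under 0.05, all lower in DKO (Hoxa9, Hoxa10, Hoxc10 and Hoxc11). Leaving out each library in turn gave 0 to 4 called Hox genes there and 0 to 3 for the interaction. The 4 and the 3 came without SKO tumor 3, which has Hoxa10 and Hoxc10 listed at 0. As that library is named for its Hox values, these counts are no test of a difference. The share of all genes called without that library was not counted. Wwox goes against the label in all 3 DKO tumor libraries and in SKO BMT 2 and 3 (0.102 and 0.0857 TPM). DKO against SKO yBM gave 0 called (0.0207% of all genes) and 0 at an unadjusted p under 0.05, with Hoxa5, Hoxa10, Hoxa11 and Hoxc6 lower in every DKO library, when 17.9% of all genes did not overlap.

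A list of 28 cofactors and regulators of Hox genes, which holds the Meis and Pbx partners, Cdx genes, trithorax and Polycomb members, had 25 tested genes in each set. Of these, 4 rose and none fell in DKO tumor against control of set 2. Over all 14458 genes tested, 17.2% were called in either direction and 1115 genes were called higher. Meis1 rose by 1.47 (adjusted p = 0.0196 by limma, 2.22 to 7.89 TPM) and Meis2 by 2.02 (adjusted p = 0.0173, 3.03 to 16.2 TPM), both homeodomain partners of Hox proteins. Ezh2, the Polycomb methyltransferase, rose by 1.81 (adjusted p = 0.00234, 8.55 to 33.7 TPM) and Cbx2, a Polycomb reader, by 1.20 (adjusted p = 0.0476, 1.30 to 4.28 TPM). In DKO BMT against the same controls, when 12% of all genes were called and 4.22% called higher, 2 of 25 rose, Meis1 by 1.44 (adjusted p = 0.0287) and Meis2 by 1.77 (adjusted p = 0.0445), and in DKO tumor against DKO BMT limma called none of the list. All 20 leukocyte markers were called lower in both DKO groups against these controls, with median log2 differences of −8.15 in DKO tumor and −6.69 in DKO BMT. With the mean log2(TPM + 1) of these markers as a covariate, a fit added after seeing the data, none of these 6 cofactor calls held (log2 differences 0.67 to 1.76, adjusted p 0.349 to 0.758 by limma). Elsewhere 1 of the list was called lower in DKO yBM against control of set 1, when 7.81% of all genes were called in either direction. Against the set 2 controls, 1 was called higher in SKO yBM (13.5% called in either direction). SKO BMT had 1 higher and 1 lower (13.4% called in either direction), and the other comparisons had none. The noncoding RNAs of the Hox clusters and the Evx genes, of which 12 of 13 listed matched, had 3 tested in set 1 and 5 in set 2, with none called by limma in any comparison.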

How the data were processed

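RNA-seq was done on poly-A RNA of 37 cultures (16 libraries in set 1, 21 in set 2). The TPM values used here are those the authors deposited, made per the submitters' notes with Trim Galore 0.6.1, FastQC and Salmon against mm39; the annotation release and the strand setting of Salmon are not given in the sources used here. TPM holds no read depth, so counting error is unknown, and an exact 0 is given as listed at 0. Gene symbols were matched for 48246 of 51123 IDs.

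Each set was fitted on its own in limma 3.58.1 (R 4.3.3), all groups of the set together, on log2(TPM + 1) with a mean-variance trend, over genes with at least 1 TPM in 3 or more libraries. P-values were adjusted by Benjamini-Hochberg over all genes tested and called under 0.05, in 15 comparisons and the interaction. The script was tested on simulated data. Alternatives were another pseudocount, filter, scaling, fitted groups, a leukocyte covariate, a replicate block and leaving out each library. The covariate was the mean log2(TPM + 1) of the 20 leukocyte markers. Leaving out libraries whose Wwox or Trp53 goes against the label, and the covariate for cofactors, were added after seeing the data.

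The members and gene lists were chosen with earlier results of these data known. Values in every library (lowest, median and highest in DKO yBM of set 1) are given for Hox genes called in any comparison or with a group mean of at least 5 TPM, and other members by range and counts, apart from single genes such as Hoxb8 that were singled out after their values were seen. Outside the family, Trp53, Wwox, Pitx1, Tbx4, Tbx5 and listed cofactors called where a Hox gene was called are named. Nothing in the labels says that replicates came from separate animals in every group. The methods of the study name as many WT and non-tumor-bearing mice as there are control BM and DKO yBM libraries in set 1. They give no such number for set 2. P-values measure the spread between these cultures, which may be technical where separate animals are not stated. The values of 1 Hox gene are not reported here, and figures of single genes show paralogs 2 to 13. Figures were drawn with matplotlib 3.10.9.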

Additional observations from a re-analysis of the deposited data

Results flagged for a closer look

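Dixon's criterion at 95% was applied to genes with 1 TPM or more in at least 1 library of a group, in 50 tests. Some genes entered only through the value then flagged, and the genes are not independent, so the flags cannot be set against a chance rate. In the control BM group of set 1 (n = 4), 1 library stood far from the other 3 for 9 Hox genes. Most of these values belong to control BM 2, namely Hoxa5 at 3.65 TPM (next 2.88), Hoxa7 at 24.5 TPM (next 5.51), Hoxa9 at 24.9 TPM (next 10.8), Hoxd4 at 1.42 TPM (next 0.0291), Hoxd8 at 20.0 TPM (next 3.91), Hoxd9 at 9.57 TPM (next 0.320) and Hoxd10 at 6.83 TPM (next 0.273). The same library held the lowest Hoxc10 of that group (3.56 TPM) and its highest Tbx5 (8.81 TPM). Hoxa2 was at 1.12 TPM in control BM 3 (next 0.544) and Hoxc8 at 6.34 TPM in control BM 1 (next 1.39).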

How the results depend on the processing

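No direction of a called Hox gene reversed under any alternative run. The share of all genes called was not counted for these runs, so the counts below are not set against it. Fitting only the compared groups moved the number of called Hox genes to 4 in DKO yBM of set 1, 10 in SKO yBM, 7 in DKO yBM and 1 in SKO BMT of set 2, and to 0 in DKO BMT of both sets. Quantile normalization gave 1 in SKO yBM, DKO yBM and SKO BMT and 3 in DKO BMT of set 2, and DKO yBM of set 2 also gave 1 with a filter at 5 TPM or median-ratio scaling. A pseudocount of 0.1 gave 0 in DKO BMT of set 2 and 1 in DKO tumor against DKO BMT, and no filter gave 0 in both and in DKO BMT of set 1. With the leukocyte covariate the number was 1 in DKO yBM of set 1 and 0 in DKO BMT against control, DKO tumor against control and DKO tumor against DKO BMT of set 2. Without libraries that go against the label in Wwox or Trp53, DKO BMT of set 1 gave 0.

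Leaving out each library in turn gave 0 to 1 called Hox genes in DKO yBM and DKO BMT against control of both sets, 2 to 7 in DKO tumor and 0 to 2 in SKO tumor against control of set 2, 0 to 4 in DKO against SKO tumor, 0 to 3 for the interaction and 0 to 0 in every other comparison, DKO tumor against DKO BMT of set 2 included. The 1 in DKO yBM came without control BM 3 in set 1 and without control BM c in set 2. Correlations of deviations between libraries of the same number ran from −0.144 to 0.285. The study describes tumor and BMT cells as paired, but whether equal numbers mark the same mouse is not given in the sources used here, so the fit without the block was kept. With the replicate block, 0 Hox genes were called in DKO BMT of set 1 (Hoxc13, adjusted p = 0.101 by limma) and 1 in DKO tumor against DKO BMT of set 2 (Hoxc10, adjusted p = 0.0434, with Hoxc11 at 0.069). The block joined all libraries of a set with the same number, whatever their group, with the controls left out in set 2. It therefore did not model tumor and BMT pairs alone. Read depth is unknown for all libraries, and 3 libraries a group limit what could be detected.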
